A study of Mus musculus with 6 samples.

Results

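The genes examined here encode the machinery that carries newly made proteins into the endoplasmic reticulum and on to the Golgi, and between those compartments. Of 42 genes listed by name, 41 had at least 1 probe set assigned to a single gene symbol, which gave 87 of the 45037 non-control probe sets on the array. Of these, 82 were bright enough to be tested, at least 1 for each of the 41 genes. The remaining gene, Sec61g, was represented by a probe set that it shares with 2 other annotated genes, so it has no value of its own. The members were picked by name after the knockout minus wild-type differences of these same arrays were known, so the differences, counts and medians given for them are a description of these livers and hold no independent evidence.

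Liver RNA came from Nrf2 knockout mice and from wild-type mice, both on the C57B/SV129 background and 10 weeks old, with 3 arrays per genotype. RNA of 3 animals was pooled for each array, so errors and p-values here measure how pools differ, and the spread of single animals is hidden. How the gene was disrupted is not given in the sources used here, no treatment or injury is named, and the series concerns poor liver regeneration and resistance to insulin and IGF-1 in the knockout. In the knockout pools the targeted gene, Nfe2l2, had deposited intensities of 5.74, 7.40 and 6.90 at its brighter probe set, against 696, 598 and 625 in wild-type pools. A second, dim probe set of Nfe2l2 did not separate the genotypes, at normalized intensities of 28.7, 29.8 and 22.5 in knockout pools, against 28.8, 25.2 and 18.8 in wild-type pools (difference 0.14 ± 0.21), and where it lies relative to the disruption is not known here. The labels were thus matched at the brighter probe set alone.

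The hepatocyte is a professional secretory cell, releasing albumin, lipoproteins, clotting factors and complement into the blood. The signal recognition particle (SRP) binds the signal sequence of a nascent chain and brings the ribosome to the endoplasmic reticulum, where the chain passes through the Sec61 channel, aided by the translocon-associated protein (TRAP) complex, and signal peptidase trims the signal off. Folded cargo leaves in vesicles coated by COPII, and COPI-coated vesicles return escaped residents from the Golgi. Part of this machinery is under the unfolded protein response, through factors such as XBP1 and ATF6, which bind the endoplasmic reticulum stress response element and related sites. Nrf2 binds the antioxidant response element.

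RefSeq promoter windows of assembly GRCm38.p6, covering 250 bases before to 50 bases after a gene's start, were held for 34 of the 42 members. The 8 others were Sec61a1, Tram1, Ssr2, Srp19, Srp68, Sec11c, Spcs3 and Arcn1. Each window was searched on both strands for 3 motifs. The first is the endoplasmic reticulum stress response element, CCAAT and CCACG with 9 bases of any kind between them. The second, TGACGTGG, is the core of the unfolded protein response element, which also resembles the site of cyclic AMP response element binding proteins. The third, TGACNNNGC, is the core of the antioxidant response element. The windows of Sec24d, Copb1, Copb2 and Sec23a, all coat subunits, held TGACGTGG, which is 4 of 34 members or 11.8%, against 1.02% of the 9020 tested genes with a window and 0.714% of all 27025 genes in the table. The 4 matches lay close to the start, and they are printed in capitals within 30 bases on the strand of the gene, 5′ to 3′, so that their surroundings can be compared. In Copb1 and Copb2 the capitals are the reverse complement of the motif.
Sec24d, chr3:123267459-123267488, plus strand: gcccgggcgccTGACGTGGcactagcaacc
Copb1, chr7:114254690-114254719, minus strand: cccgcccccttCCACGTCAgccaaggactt
Copb2, chr9:98563713-98563742, plus strand: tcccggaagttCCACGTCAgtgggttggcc
Sec23a, chr12:59011993-59012022, minus strand: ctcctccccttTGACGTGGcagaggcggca

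The match ran from base -26 to -19 in Sec24d and from -28 to -21 in Copb1, counting the first base of the gene as 1 and the base before it as -1. It ran from -7 to 1 in Copb2 and from 7 to 14 in Sec23a. The longer stretch before the start of Sec24d, chr3:123267246-123267495, plus strand, is given because Sec24d had the largest difference among these 4 genes (-0.26 log2), with the same match in capitals.
Sec24d, 250 bases before the start: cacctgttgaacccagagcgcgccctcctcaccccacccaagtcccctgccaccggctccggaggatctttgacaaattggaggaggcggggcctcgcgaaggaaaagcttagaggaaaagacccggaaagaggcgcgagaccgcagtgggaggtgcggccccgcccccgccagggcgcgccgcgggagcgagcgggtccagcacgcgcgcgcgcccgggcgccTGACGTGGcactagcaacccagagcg

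No member window held the endoplasmic reticulum stress response element, while 7 of 17 endoplasmic reticulum chaperone and unfolded protein response genes did (Hspa5, Hsp90b1, Calr, Canx, Pdia6, Dnajc3 and Creld2), against 0.166% of tested genes. None of those 17 held TGACGTGG. The endoplasmic reticulum stress response element was found in 15 of the 9020 tested genes. Its absence is thus shared by the members with nearly all tested genes. The Hspa5 site, in the gene of the chaperone BiP, is printed as an example of the element.
Hspa5, chr2:34772020-34772049, plus strand: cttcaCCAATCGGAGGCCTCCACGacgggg
The core of the antioxidant response element was found in 11 of 34 member windows, 32.4%, against 1536 of the 9020 tested genes and 14.0% of all genes. The matches in Sec24d and Sec23a overlap their TGACGTGG matches, of which TGACNNNGC takes in all the letters. Median GC content was 59.7% in the member windows, 60.7% in those of tested genes and 52.7% over the table. Of the other 9 genes, 4 are shown because they are subunits with a tested probe set whose groups did not overlap, Ssr4 at a dimmer one. These 4 were thus picked by their expression. Those not shown were Sec24a, Srp9, Srp14, Spcs1 and Copz1, with log2 differences of -0.19, -0.15, -0.01, -0.01 and 0.01. The capitals are the reverse complement of the motif in Sec61b and Ssr4.
Cope, chr8:70302787-70302816, plus strand: ttggttagaggtgcggTGACATGGCtcctc
Sec61b, chr4:47474596-47474625, plus strand: tctcaggacaGCCCAGTCAtccaagagtct
Sec11a, chr7:80947653-80947682, minus strand: ggtcctttttTGACAAGGCcaggccctggg
Ssr4, chrX:73786958-73786987, plus strand: ttacgcacgcGCACAGTCAcaccggttctt
A match says that these letters are present, and binding of any factor was not measured.

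As a group, the members stood slightly lower in the knockout. At their brightest tested probe set, 36 of 41 were lower and 5 were higher, where 48.6% of the 11102 genes tested were lower. Values are log2(intensity + 5.26), quantile normalized between arrays, and every difference is knockout minus wild type on that scale, with its standard error (SE, n = 3 pools per genotype). The median difference of the members was -0.13, with a range of -0.43 to 0.13, against 0.01 over all genes tested. None of the 41 passed an adjusted p of 0.05 by limma, where 0.144% of all genes did (0.108% lower, 0.036% higher). The lowest adjusted p, that of Ssr3, was 0.390. In simulated data only 6.4% of probe sets given a difference of 0.5 log2, larger than that of any member, passed. That none passed therefore does not show that the members were unchanged. At an unadjusted p under 0.05 there were 9 members, all lower, where the background was 8.22% of all genes, 4.15% lower and 4.07% higher. The groups of 3 did not overlap for 12 members that were lower and 1 that was higher, where the background was 6.55% and 7.38%. These bulk RNA values do not tell fewer cells of a type from less RNA per cell.

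**Figure D1:**
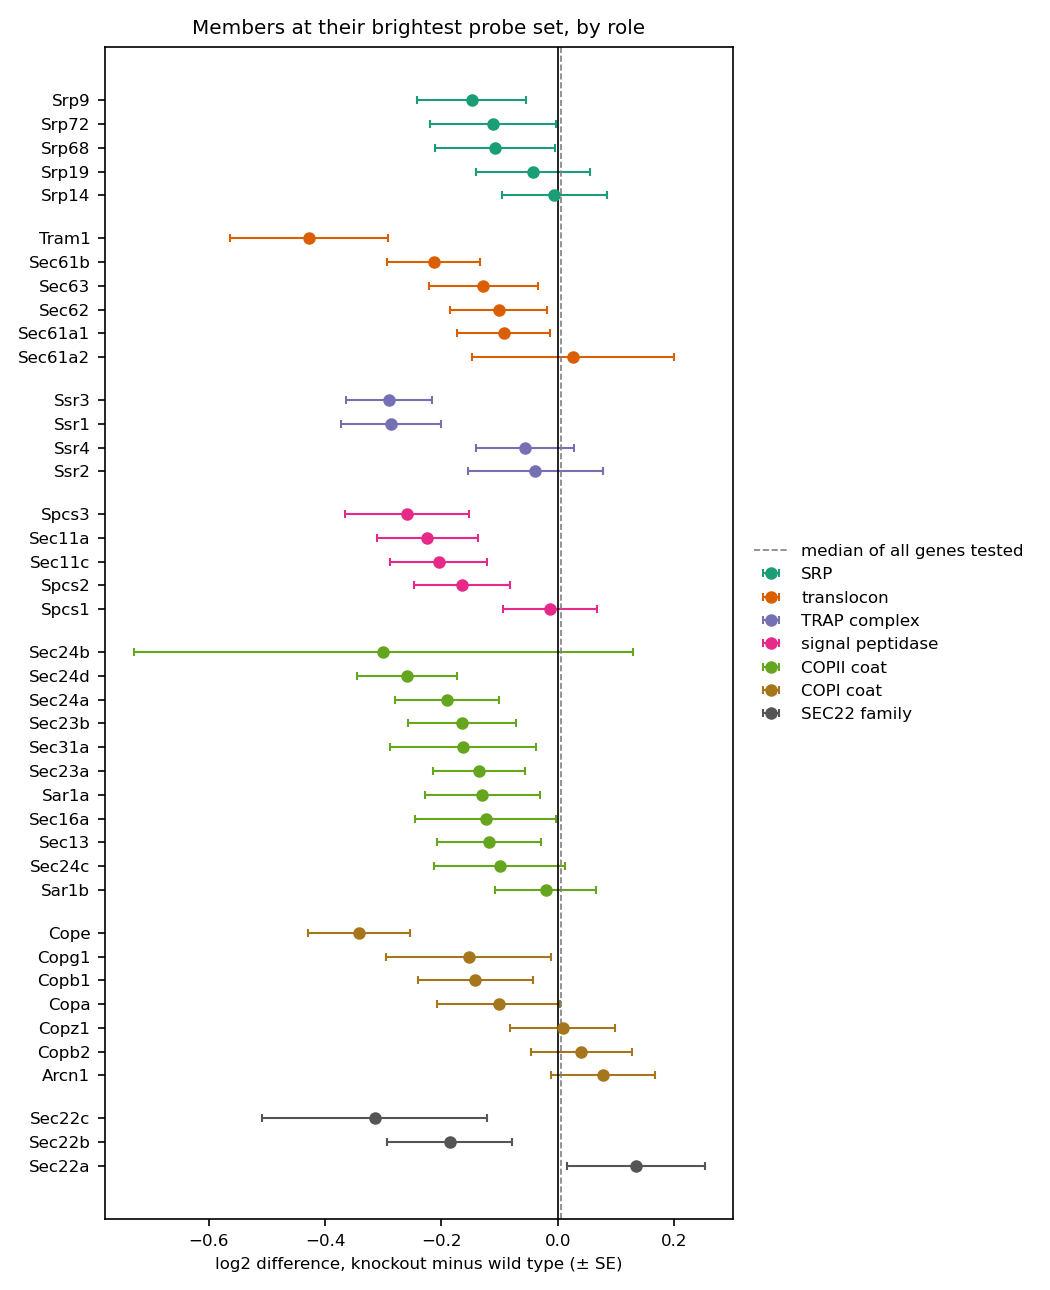
Log2 difference, knockout minus wild type, of the 41 members at their brightest tested probe set, with the SE as bars (n = 3 pools per genotype) and colours for the role. The points run from -0.43 for Tram1 to 0.13 for Sec22a, 36 of them lie below 0, and the dashed line marks the median of all genes tested, 0.01.

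Among the 5 measured SRP genes all differences were below 0 and small, with a median of -0.11, which was -0.05 without wild-type pool 1 and -0.04 without wild-type pool 3. Srp9, which with Srp14 slows elongation while the ribosome is targeted, had normalized intensities of 908, 1037 and 1007 in knockout pools, against 1020, 1073 and 1179 in wild-type pools. A normalized intensity is the quantile-normalized value turned back to the linear scale. The groups overlapped, with only knockout pool 1 clearly apart, and the difference was -0.15 ± 0.09. Srp68 and Srp72, which form a heterodimer on the SRP RNA, were each at -0.11 (SE 0.10 and 0.11). Srp19, needed to assemble SRP54 onto the RNA, was at -0.04 ± 0.10, and Srp14 was at -0.01 ± 0.09, 2 of its 4 probe sets being lower.

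In the translocon, 5 of 6 measured genes were lower (median -0.12), and the larger differences were those of Tram1 and Sec61b. Tram1, a membrane protein that helps some chains across, had the largest difference of all members. Its intensities were 1463, 1184 and 1175 in knockout pools, against 1472, 1662 and 2036 in wild-type pools, so that knockout pool 1 lay just below the lowest wild-type pool. The difference was -0.43 ± 0.14, and a second, dimmer probe set was at -0.31 ± 0.21. Sec61b, the small beta subunit of the channel, had 1377, 1411 and 1532 in knockout pools, against 1610, 1731 and 1667 in wild-type pools. Its groups did not overlap, with a difference of -0.21 ± 0.08.

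The gene of the main pore subunit, Sec61a1, was measured by 6 probe sets, 5 of them lower. The brightest was at -0.09 ± 0.08 with overlapping groups, and the one with the largest difference was at -0.32 ± 0.09 with groups apart. Its paralogue Sec61a2 was at 0.03 ± 0.17, from intensities of 64.5 to 76.9 in the knockout, against 60.4 to 86.5 in the wild type. Sec62 and Sec63, which assist chains that engage the channel after synthesis and recruit the chaperone BiP, were at -0.10 ± 0.08 and -0.13 ± 0.09. The probe set that Sec61g shares with 2 other genes was at 0.01 ± 0.12.

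Of the TRAP complex, which helps chains with weaker signals enter the channel, all 4 genes were lower (median -0.17), the alpha and gamma subunits with groups apart. Without wild-type pool 3 the count was 2 of 4 and without knockout pool 1 it was 3 of 4. Ssr3 had intensities of 2790, 2555 and 2709 in knockout pools, against 3115, 3351 and 3387 in wild-type pools. Each knockout pool lay below each wild-type pool, and the difference was -0.29 ± 0.07 (18.2% lower). The other probe set of Ssr3 was at -0.25 ± 0.08, also with groups apart. Ssr1 had 1227, 1174 and 1213 in knockout pools, against 1385, 1609 and 1423 in wild-type pools. Its groups did not overlap, the difference was -0.29 ± 0.09, and its 3 other probe sets were at -0.29 to -0.58. Ssr2, the beta subunit, was at -0.04 ± 0.12. For Ssr4, the delta subunit, the value differed by probe set, at -0.06 ± 0.08 for the brightest and at -0.48 ± 0.14 and -0.63 ± 0.30 for dimmer ones.

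Signal peptidase had the lowest median of the 7 roles with all pools, at -0.21 with all 5 genes lower. Without knockout pool 1 or wild-type pool 3 the count was 4 of 5. The rank depended on the setting. Over all settings the signal peptidase median went no lower than -0.27, while that of the TRAP complex reached -0.32. The SEC22 median was -0.28 without knockout pool 3. In 4 of the 5 signal peptidase genes the groups did not overlap at the brightest probe set. Over all genes tested, 6.55% were lower with groups that did not overlap. Sec11a, a catalytic subunit, had 1027, 1035 and 1179 in knockout pools, against 1229, 1291 and 1262 in wild-type pools, a difference of -0.22 ± 0.09. Sec11c, the alternative catalytic subunit, had 560, 549 and 551 in knockout pools, against 623, 630 and 663 in wild-type pools, a difference of -0.21 ± 0.08. The knockout pools of Sec11c lay within a narrow range below all wild-type pools. Spcs3, an accessory subunit, had 1027, 880 and 805 in knockout pools, against 1030, 1137 and 1068 in wild-type pools. The 2 groups only just failed to meet, at knockout pool 1 and wild-type pool 1, and the difference was -0.26 ± 0.11. Spcs2 had 1487, 1500 and 1397 in knockout pools, against 1621, 1545 and 1755 in wild-type pools, a difference of -0.17 ± 0.08. The other probe set of Spcs2 was at -0.02 ± 0.11 with overlapping groups. The smallest subunit, Spcs1, was level at -0.01 ± 0.08.

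**Figure D2:**
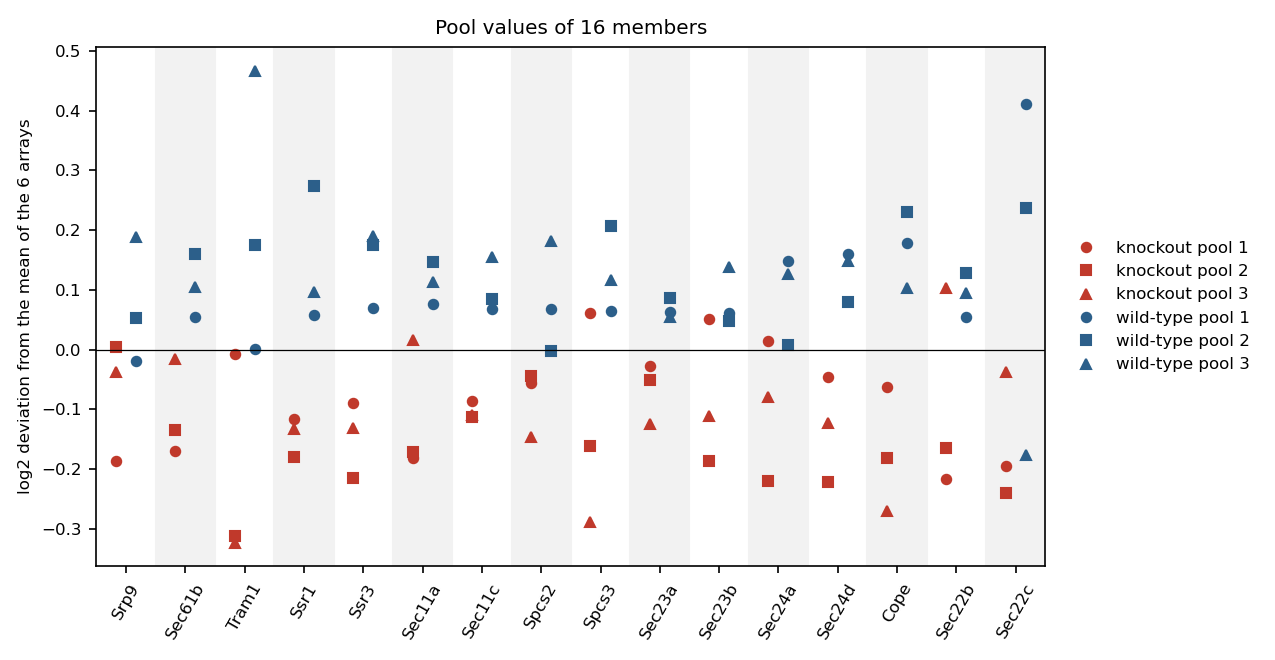
Log2 deviation of each pool from the mean of the 6 arrays for the 16 members with the smallest p within their roles, knockout pools left (red) and wild-type pools right (blue) in each column, with a symbol for each pool number. In Ssr1, Ssr3, Sec11c, Sec24d and Cope the red and blue points form separate clusters, while in Srp9, Sec23b, Sec24a, Sec22b and Sec22c they overlap.

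All 11 COPII genes were lower, with a median of -0.14, and most by less than 0.2. The median was -0.21 without knockout pool 1 and -0.11 without knockout pool 2. The count of lower genes was 9 of 11 without knockout pool 2, and 10 of 11 without knockout pool 3 or with array weights. Sec24d, a cargo-binding subunit of the inner coat, had 852, 754 and 808 in knockout pools, against 984, 929 and 976 in wild-type pools. The groups did not overlap, and the difference was -0.26 ± 0.09 (16.4% lower). Sec24a, its relative, had 1614, 1372 and 1512 in knockout pools, against 1772, 1607 and 1746 in wild-type pools. Knockout pool 1 and wild-type pool 2 met, and the difference was -0.19 ± 0.09. Sec24c was at -0.10 ± 0.11. Sec24b was at -0.30 ± 0.43, too spread to place, with intensities of 20.9 to 85.0 in the knockout, against 36.5 to 71.4 in the wild type, and its other probe set was at 0.18 ± 0.20.

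Sec23 pairs with Sec24 and speeds GTP hydrolysis by Sar1. Sec23a had 956, 940 and 893 in knockout pools, against 1018, 1035 and 1012 in wild-type pools, a difference of -0.14 ± 0.08. The groups did not overlap, although the gap was small. Sec23b had 874, 740 and 780 in knockout pools, against 880, 871 and 929 in wild-type pools, a difference of -0.16 ± 0.09. Knockout pool 1 reached the wild-type range. The GTPase genes that start the coat were at -0.13 ± 0.10 for Sar1a and -0.02 ± 0.09 for Sar1b. The outer cage genes Sec13 and Sec31a were at -0.12 ± 0.09 and -0.16 ± 0.13, with groups apart for Sec13, whose product is also part of the nuclear pore. Sec16a, which marks the exit sites of the endoplasmic reticulum, was at -0.12 ± 0.12.

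COPI genes were mixed, with 4 of 7 lower and a median of -0.10. That median was -0.01 without wild-type pool 3, -0.05 without knockout pool 2 (6 of 7 lower) or 3, and -0.16 without knockout pool 1. Cope, the epsilon subunit of coatomer, differed most. Its intensities were 1073, 987 and 928 in knockout pools, against 1269, 1315 and 1204 in wild-type pools, well apart, with a difference of -0.34 ± 0.09 (21.1% lower). The other subunits that were lower were at -0.15 ± 0.14 for Copg1, -0.14 ± 0.10 for Copb1 and -0.10 ± 0.11 for Copa. Copz1, Copb2 and Arcn1, the zeta, beta-prime and delta subunits, were at 0.01 ± 0.09, 0.04 ± 0.09 and 0.08 ± 0.09. With arrays centred on their medians in place of quantile normalization, 6 of the 7 were lower. A dim probe set of Copz1, under the filter, was at -1.15 ± 0.35, from intensities of 2.24 to 8.88 in the knockout, against 17.4 to 26.2 in the wild type as deposited.

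Of the 3 SEC22 genes 2 were lower and 1 was higher, with a median of -0.19 (-0.12 without knockout pool 1). Sec22b, a SNARE of transport between endoplasmic reticulum and Golgi, had 509, 527 and 636 in knockout pools, against 615, 648 and 633 in wild-type pools. Knockout pool 3 lay among the wild-type pools, and the difference was -0.19 ± 0.11. Sec22c was at -0.32 ± 0.19, from dim intensities of 37.0, 35.7 and 41.9 in knockout pools, against 59.1, 51.8 and 37.5 in wild-type pools. Sec22a, at 143, 132 and 124 in knockout pools, against 121, 123 and 117 in wild-type pools, was at 0.13 ± 0.12. It was the single member whose knockout pools all lay above the wild-type pools at the brightest probe set. A dim probe set of Sec22a, under the filter, was at -0.21 ± 0.26 with groups apart. A dimmer tested probe set of Copa, at 0.29 ± 0.17, also had all knockout pools above the wild-type pools.

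Of the 82 tested probe sets, 68 were lower, where 49.2% of all probe sets were, and 14 were lower at an unadjusted p under 0.05, where 3.89% of all probe sets were. Of the 25 members with more than 1 tested probe set, all were lower for 17, all were higher for 2 (Sec61a2 and Copb2) and 6 were mixed (Srp14, Sec61a1, Sec62, Sec24b, Copa and Arcn1). Sec62 ranged most among these 6, from -0.33 ± 0.12 to 0.42 ± 0.27, the second at a dim probe set.

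**Figure D3:**
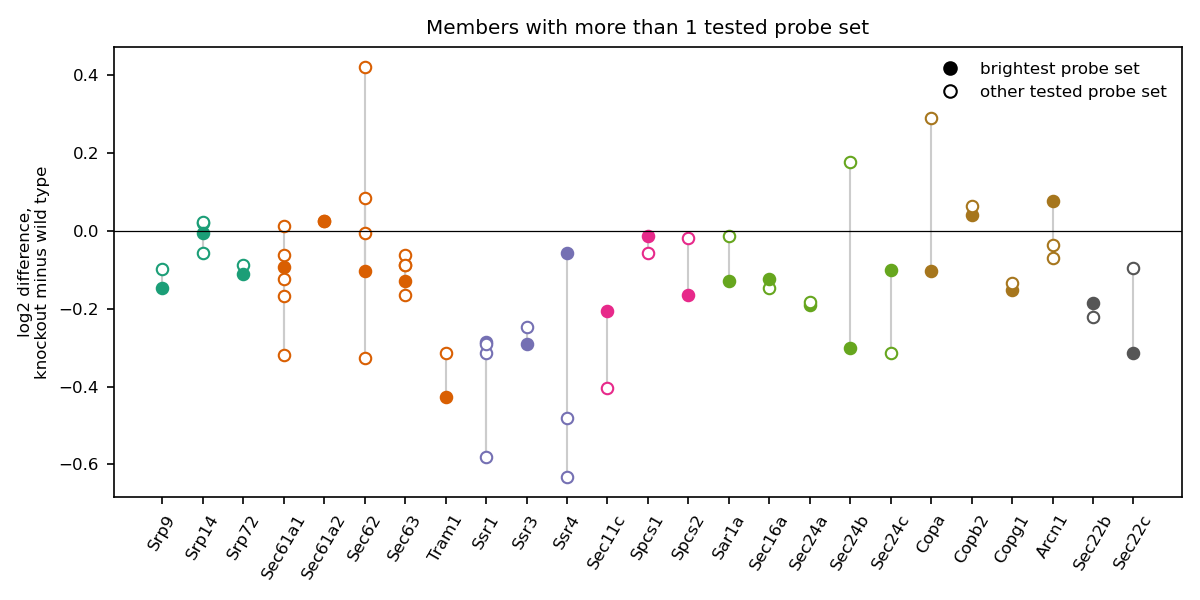
Log2 difference, knockout minus wild type, at every tested probe set of the 25 members that have more than 1, the brightest filled and the others open. Ssr1 and Ssr3 lie below 0 at each probe set, while Sec62 spans -0.33 to 0.42 and Copa spans -0.10 to 0.29.

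The median deviation of the members from the mean of the 6 arrays was -0.03, -0.11 and -0.08 log2 in knockout pools, against 0.06, 0.07 and 0.11 in wild-type pools. Over all genes tested the same medians lay between -0.02 and 0.02. The knockout pools had 29, 35 and 35 of the 41 members below the wild-type mean, which is 70.7%, 85.4% and 85.4%, where 46.2%, 46.8% and 52.2% of all genes tested were. The within-genotype standard deviation was 0.09 log2 for a single member, as a median over members, against 0.18 over all genes tested. The members were also brighter, with a median mean log2 value of 9.9, against 7.09 over all genes tested. The shares given over all genes are thus not matched to the members in brightness or spread. By role, the medians of knockout pools lay below those of all wild-type pools for the TRAP complex, signal peptidase, the translocon and COPII, the last pair by under 0.01, whereas those of the SRP, COPI and SEC22 genes overlapped.

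**Figure D4:**
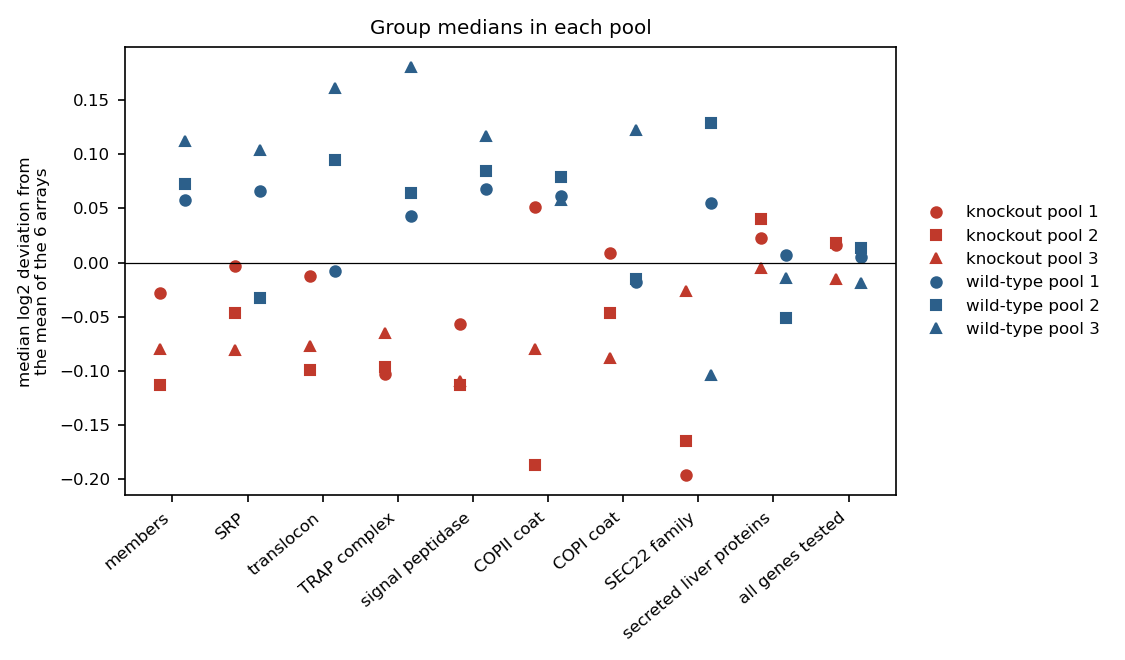
Median log2 deviation from the mean of the 6 arrays, per pool, for the members, their 7 roles, secreted liver proteins and all genes tested, knockout pools left (red) and wild-type pools right (blue). For the members the knockout pools sit at -0.11 to -0.03 and the wild-type pools at 0.06 to 0.11, and over all genes the pools sit between -0.02 and 0.02.

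Neighbouring parts of the pathway were examined through 9 lists of genes that are not members, drawn up with the same earlier results known. None of their genes passed by limma. In 8 of the lists, those of machinery, 84 of 122 tested genes (68.9%) were lower, with a median of -0.08. Over all genes tested 48.6% were lower. At an unadjusted p under 0.05 these lists had 19 lower and 1 higher, where the background was 4.15% lower and 4.07% higher. The endoplasmic reticulum chaperone and unfolded protein response list had the lowest median, at -0.25, with 19 of 21 lower. Its medians overlapped between genotypes, with knockout pool 3 at 0.05 and wild-type pool 1 at -0.10. Hyou1, a chaperone that works with BiP, had 526, 487 and 591 in knockout pools, against 634, 887 and 1256 in wild-type pools, a difference of -0.74 ± 0.22. The wild-type pools were more spread than the knockout pools, and the median of this list was -0.37 without wild-type pool 1. It was -0.15 in the fit lacking knockout pool 2 and -0.12 in that lacking wild-type pool 3. Sdf2l1 and Pdia4 were at -0.67 ± 0.25 and -0.57 ± 0.22 with overlapping groups.

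Cargo receptors and fusion factors held the 2 differences with the smallest p in these lists. Bet1, a SNARE for fusion with the Golgi, had 327, 332 and 319 in knockout pools, against 418, 503 and 505 in wild-type pools. The groups stood well apart, and the difference was -0.53 ± 0.11 (limma adjusted p = 0.209). Tmed3, a cargo receptor of the p24 family, had 302, 251 and 339 in knockout pools, against 427, 435 and 516 in wild-type pools, a difference of -0.62 ± 0.14 (limma adjusted p = 0.266). The SNARE and tether list had 19 of 29 lower and a median of -0.11, which was -0.07 without knockout pool 2 or any 1 of the wild-type pools, with the SNARE gene Stx5a at -0.27 ± 0.09 and the Golgi stacking gene Gorasp2 at -0.27 ± 0.10. The p24 and cargo receptor list had 12 of 18 lower and a median of -0.04, which was -0.07 without wild-type pool 1 or 2, with Kdelr2, which retrieves escaped residents, at -0.34 ± 0.12 and Tmed9 at -0.22 ± 0.09.

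The regulators of both coats had medians close to 0. Of the COPII regulators 8 of 14 were lower (median -0.04). Without wild-type pool 1 or 2 this was 6 of 14, with medians of 0.06 and 0.01, and the fits lacking knockout pool 2, knockout pool 3 or wild-type pool 3 gave medians of -0.01, 0.00 and -0.10. Those with the smallest p were Preb, the exchange factor of Sar1, at -0.29 ± 0.11, Tfg, which organises exit sites, at -0.20 ± 0.09, and Trappc10, of a tethering complex, at -0.23 ± 0.13. Of the 6 that were higher, Trappc3 was at 0.164 ± 0.095 with groups apart. Trappc12, with overlapping groups, was at 0.33 ± 0.28. Of the COPI regulators 5 of 10 were lower (median -0.03), but 3 of 10 without knockout pool 3, where the median was 0.02. It was -0.07 without knockout pool 2 and -0.01 with wild-type pool 3 left out. Those with the smallest p were the Arf exchange factor Gbf1 at -0.34 ± 0.12, the Arf GTPase activator Arfgap3 at -0.57 ± 0.27 and Arf4 at -0.21 ± 0.12. The highest difference in this list was that of Arf5, at 0.15 ± 0.15. In the oligosaccharyltransferase, which attaches glycans to entering chains, 10 of 12 were lower (median -0.09, but -0.16 without knockout pool 3, -0.14 without wild-type pool 1 and -0.05 without wild-type pool 3), with Rpn1 at -0.19 ± 0.08, Ddost at -0.20 ± 0.09 and Magt1 at -0.21 ± 0.10. The median of the 3 SRP receptor and SRP54 genes was -0.18, but -0.10 without knockout pool 2. The SRP receptor genes Srpr and Srprb were at -0.18 ± 0.09 and -0.21 ± 0.15, and Srp54b at -0.02 ± 0.38. Genes for tail-anchor and membrane complex insertion were split, 8 of 15 lower with a median of 0.00, with Emc1 at -0.31 ± 0.12, Emc10 at 0.27 ± 0.11 and Emc8 at 0.30 ± 0.14. The split of several lists moved when arrays were centred on their medians, to 12 of 12 lower for the oligosaccharyltransferase, 7 of 10 for the COPI regulators, 15 of 18 for the p24 and cargo receptor list, 22 of 29 for the SNAREs and tethers and 11 of 15 for the insertion genes, with 56.2% of all genes lower.

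Genes of the cargo had a median close to that of all genes. Of 20 tested genes of secreted liver proteins 6 were lower and 14 higher, with a median of 0.03, and 19 were higher under median centring of the arrays. The count of lower genes was 3 without wild-type pool 1, and 4 without wild-type pool 2 or knockout pool 3. Haptoglobin, Hp, was at 0.12 ± 0.07, Apoa1, at the top of the scale and tied between several arrays after normalization, at 0.09 ± 0.06 and hemopexin, Hpx, at 0.09 ± 0.06. None of these 20 reached an unadjusted p under 0.05, and the groups overlapped for each of them. These are among the brightest probe sets of the array, where signals may be compressed, and saturation was not tested.

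**Figure D5:**
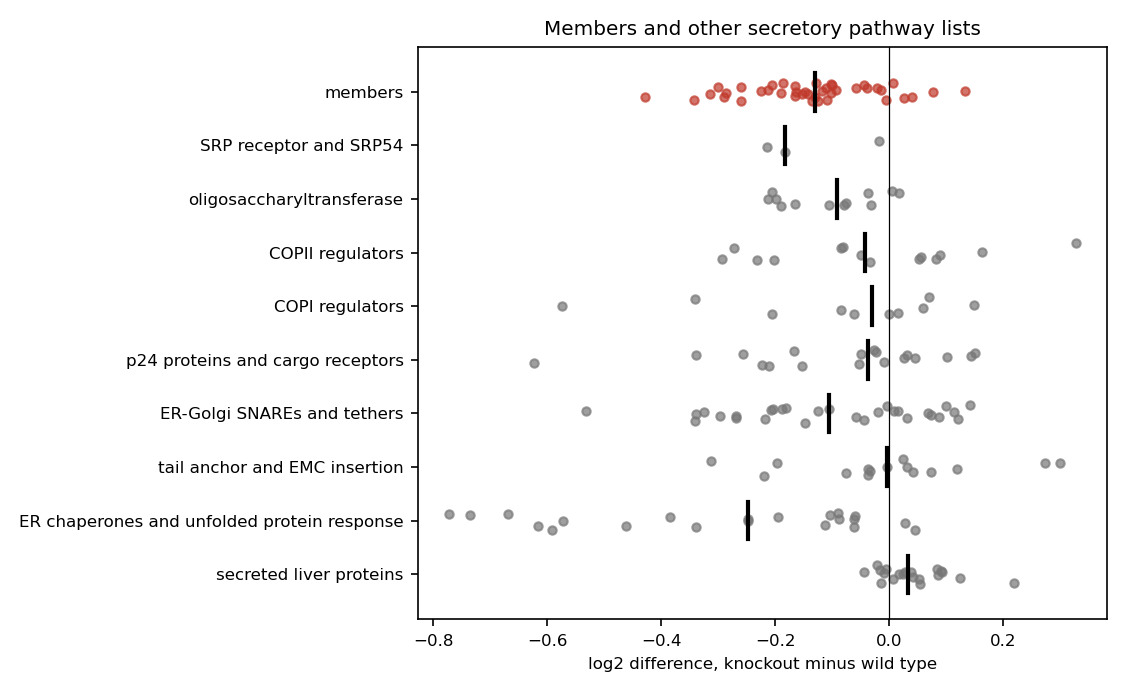
Log2 difference, knockout minus wild type, of each member (red) and of each gene in 9 other secretory pathway lists (grey), with a black bar at each median. The medians run from -0.25 for chaperones and unfolded protein response genes to 0.03 for secreted liver proteins, and that of the members is -0.13.

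Other features of the same arrays stand beside these values. The 2% trimmed mean intensity ran from 92.7 to 132. The ratio of 3′ to 5′ actin signal was 1.97 ± 0.03 in the knockout, against 1.86 ± 0.08 in the wild type (SD, n = 3 each, exact two-sided permutation p = 0.1, the smallest that 3 against 3 can give), and its part in the members' differences was not tested. The same ratio for Gapdh was 0.767 ± 0.037 in the knockout, against 0.760 ± 0.00607 in the wild type (SD, n = 3 each, exact two-sided permutation p = 0.9). Hepatocyte markers were tested for 9 of 9 genes, and their summed normalized intensity was 79550 to 79950 in the knockout, against 76650 to 79590 in the wild type. Of 8 plasma cell markers, another secretory type, Tnfrsf17, Pou2af1 and Irf4 lay under the filter, and the sum, most of it Sdc1, which hepatocytes also express, was 2214 to 3712 in the knockout, against 2158 to 2499 in the wild type. For exocrine pancreas 3 of 9 markers were tested, Prss2, Cela1 and Cela2a, all higher. Cela3b, Cpa1, Cpb1, Ptf1a, Ctrb1 and Clps lay under the filter. The sum over the 9 was 803 to 1287 in the knockout, against 552 to 934 in the wild type, with overlap. Most of this sum was Cela1 alone, at 707 to 1195 in the knockout, against 469 to 860 in the wild type. Prss2 and Cela2a were dim, at 10.7 to 34.0 over the pools. All 7 stellate cell and fibroblast markers were higher, with a median of 0.21, and their sum was 3319 to 3599 in the knockout, against 2931 to 3235 in the wild type. Most of that sum was Dcn and Reln, and the groups of each of these 2 genes overlapped. Dcn was at 1484 to 1882 in the knockout, against 1452 to 1512 in the wild type. For sinusoidal endothelial cells, 7 of 7 tested, 5 markers were higher and 2 lower. The sum was 2433 to 2479 in the knockout, against 2232 to 2425 in the wild type. Neither these nor the stellate cell sums overlapped, although the endothelial sums only just failed to meet. Kupffer cell and macrophage markers, 8 of 8 tested, summed to 5046 to 6747 in the knockout, against 5167 to 6147 in the wild type. For lymphocytes, cholangiocytes and red blood cells 3 of 8, 2 of 5 and 1 of 3 markers were tested, and the sums overlapped. No marker of any list passed by limma (2 reached an unadjusted p under 0.05), and the part of other cells in the members' differences was not tested.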

How the data were processed

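The deposited values are linear probe set intensities, with GCOS 1.4 named per the submitters' processing notes; the sources used here do not give the signal algorithm or scaling, and no filter is stated. The members and gene lists were chosen with earlier results of these data known. Probe sets with exactly 1 gene were named from the platform annotation. To each intensity 5.26 was added, the 25th percentile over the arrays, before log2 and quantile normalization. This understates differences of dim probe sets. Of 45037 non-control probe sets, the 22519 whose mean reached the median were tested with limma 3.58.1 in R 4.3.3 (lmFit and trended eBayes), and p-values were adjusted over all of them by Benjamini-Hochberg. A gene took its brightest tested probe set. The procedure was run on simulated data with the means and variances of these arrays. Of 250 probe sets given a difference of 0.5 log2, 16 passed (6.4%), and of 500 given 1 log2, 241 did (48.2%). Of 111595 given none, 20 passed. The changed probe sets were drawn from all those tested, so these shares are not specific to the members. Pool values are given for the 16 members with the smallest p, at least 1 and at most 4 per role. Up to 3 genes of each other list, those with the smallest p, are named. Further genes were chosen after their values were seen. The number of arrays limits the precision. Protein sequences were not used here. The alternatives were other pseudocounts, filters and centring, no intensity trend, array weights, averaged probe sets, a block and each pool left out.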

Additional observations from a re-analysis of the deposited data

How the results depend on the processing

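Leaving out single pools gave 32 to 38 lower members, a median of -0.16 to -0.11, 5 to 8 members with unadjusted p under 0.05 (5 in fits lacking knockout pool 2 or wild-type pool 1, 9 with all pools) and 18 to 29 probe sets passing over the whole array, against 32 with all pools (19 without knockout pool 1 or 2, 18 without wild-type pool 2). No member passed in any of these or in the 8 other settings that gave p-values, where the lowest adjusted p of a member was 0.282, for Cope, with arrays centred on their medians. That centring moved the members' median to -0.19 and that of all genes from 0.01 to -0.03. Without the intensity trend 5 members had an unadjusted p under 0.05 and 18 probe sets passed, with no filter 20 passed, and with a filter at the 70th percentile 19, where dimness left 39 members to test and 34 of them were lower. The median of the COPI genes was -0.01 without wild-type pool 3 or when probe sets of a gene were averaged, and that of the SRP genes was -0.04 without wild-type pool 3. The median of the COPII regulators was 0.06 without wild-type pool 1. None of the 16 members with pool values changed direction in any setting in which it was tested. Sec22c was too dim for the filter at the 70th percentile. These 16 were picked for a small p in this same contrast, and the settings reuse the same arrays. A kept direction is therefore no independent support. Same-numbered pools of the genotypes correlated at 0.129, 0.0451 and 0.248 in their deviations, and not every pool did so best with its own number. They were not treated as paired, and a fit with a replicate block had 36 members lower, 9 of them at an unadjusted p under 0.05, and the median was -0.13.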
